A study of Mus musculus with 14 samples.

Results

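The miRNAs described here are 7 hairpins of the imprinted Dlk1-Dio3 domain of mouse chromosome 12, among 539 hairpins measured in exosomes of adipose tissue macrophages. They were taken by name from the authors' deposited table, in which each is 1 row. The hairpins mmu-mir-431, mmu-mir-433, mmu-mir-127 and mmu-mir-136 lie antisense to the gene Rtl1, and mmu-mir-379, mmu-mir-411 and mmu-mir-299a lie in the miRNA cluster at the Mirg end of the domain; the species prefix mmu is left out from here on. Macrophages sorted as CD11b+F4/80+ from fat of obese or lean C57BL/6 mice were cultured for 72 h in IMDM medium with 10% fetal bovine serum freed of exosomes, and vesicles were then spun out of the medium. By their labels 7 libraries are obese and 7 lean, and both groups share strain, tissue, culture and RNA kit. What made the mice obese, a diet or an allele, was not found in the labels. Ages in the labels rise from each library to the next and entered no comparison; if they hold, age and obesity cannot be told apart. Nothing in the labels says whether a library came from 1 animal, so p-values measure the spread between these libraries, which may be technical.

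The Dlk1-Dio3 domain is expressed according to the parent of origin. From the maternal chromosome come the noncoding RNAs Meg3, Rian and Mirg and a large set of miRNAs, which are thought to be processed from long transcripts that run through the domain. From the paternal chromosome come the protein-coding genes Dlk1, whose product restrains adipocyte formation, Rtl1, derived from a retrotransposon and needed in the placenta, and Dio3, which encodes an enzyme that inactivates thyroid hormone. Maternal miRNAs transcribed across Rtl1 are fully complementary to its paternal mRNA and can direct its cleavage. The miRNAs of the domain are best known from embryo, placenta, brain and mesenchymal cells.

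All 7 hairpins matched RefSeq on GRCm38, with mature sequences of 21 or 22 bases. The mature sequences of the Rtl1 side are shown because each is complementary to the mRNA it lies across. They are written 5′ to 3′ with the seed, bases 2 to 8, in capitals.
miR-431-5p: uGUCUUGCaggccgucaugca
miR-431-3p: cAGGUCGUcuugcagggcuucu
miR-433-5p: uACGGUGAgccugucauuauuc
miR-433-3p: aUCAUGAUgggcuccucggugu
miR-127-5p: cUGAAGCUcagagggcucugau
miR-127-3p: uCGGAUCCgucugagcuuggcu
miR-136-5p: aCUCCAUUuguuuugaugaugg
miR-136-3p: aUCAUCGUcucaaaugagucuu

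For these 4 hairpins the whole sequence, of 62 to 124 bases, was found as an exact reverse complement in the Rtl1 transcript of GENCODE M21. All 4 lie on the plus strand of chromosome 12 across exon 2 of Rtl1, within its coding sequence, which is on the minus strand. In the order of the chromosome these are mir-431 (chr12:109590447-109590537), mir-433 (chr12:109591715-109591838), mir-127 (chr12:109592846-109592915) and mir-136 (chr12:109595327-109595388). The hairpin mir-136 is also overlapped on the opposite strand by mir-3071. None of their 8 seeds occurs in any other mouse mature miRNA of the RefSeq table.

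The mature sequences of the Mirg end are shown because mir-379 and mir-411 are alike in sequence while their measured levels are not.
miR-379-5p: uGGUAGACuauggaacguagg
miR-411-5p: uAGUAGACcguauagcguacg
miR-299a-5p: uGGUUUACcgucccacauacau
miR-379-3p: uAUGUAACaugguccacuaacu
miR-411-3p: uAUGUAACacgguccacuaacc
miR-299a-3p: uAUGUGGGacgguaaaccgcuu

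The 3p arms of mir-379 and mir-411 have the same seed and 20 of 22 bases in common. With positions counted from 1 at the 5′ end and the base of miR-379-3p first, they differ by U10C and U22C. Their 5p arms have 14 of 21 bases in common, and the seeds differ by G2A. The seed of the 3p arms was the only one shared among the 14 mature sequences, which have 13 different seeds. Outside the 7 hairpins, the seed of miR-379-5p occurs in miR-1193-5p, that of miR-411-5p in miR-7229-5p and that of miR-299a-3p in miR-299b-3p, and the hairpins of those have no row in the table. These hairpins, mir-379 (chr12:109709060-109709125), mir-411 (chr12:109710175-109710256) and mir-299a (chr12:109710638-109710700), follow each other on the plus strand 168 to 170 kb after the start of Meg3. They lie outside annotated exons and 19.1 to 20.6 kb before the annotated start of Mirg. For these 3 hairpins Mirg is therefore a neighbour, not a host transcript in this annotation. Other hairpins of the Mirg end, such as mir-134 and mir-410, do lie within annotated Mirg. A stretch of 20 bases of mir-411 also occurs in the hairpin Mir758, and mir-299a is overlapped on the opposite strand by mir-299b, with which it shares 20 bases on both strands. Reads that lie wholly within a shared stretch could come from either hairpin. The seeds of mir-411 were found in no mature sequence of mir-758, and that of miR-299a-5p in no other mature miRNA of the RefSeq table. The table has no row for mir-758 or mir-299b, so whether any of their reads were counted under mir-411 or mir-299a is unknown here.

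The table gives 1 result per hairpin and no value for any library, so the level in each library, the overlap of the groups and the mean of each group are unknown here. Its mean log2 expression is an average over all 14 libraries, on a scale whose normalization the labels and header leave unstated. Rows name hairpins, so the 5p and 3p arms cannot be told apart, and how reads of each arm entered a row is not stated. All members yield mature RNAs of nearly the same length, so their levels need no correction for length. Whether the libraries captured different sequences equally well was not tested. Ratios between hairpins are therefore ratios of measured values and may not be those of the RNAs in the exosomes. No error of the mean expression is given, so no order of neighbouring levels was tested.

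By that measure mir-127 stood far above the other members. Its mean log2 expression was 8.52 in the authors' deposited table, rank 107 of 539 hairpins. The next was mir-411, at 4.67 and rank 193 in the authors' deposited table. Both lay above the median of all hairpins, 2.34, and the other 5 members lay below it. Among those, mir-136 had a mean log2 expression of 1.04, mir-379 of 0.72 and mir-431 of 0.55 in the authors' deposited table. The lowest levels in the authors' deposited table were those of mir-433, at −0.06, and mir-299a, at −0.15, which rank 453 and 462 of 539. The table as a whole runs from −0.92 to 15.69, so these hairpins sat near its floor, and how many reads stand behind them is unknown here.

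**Figure D1:**
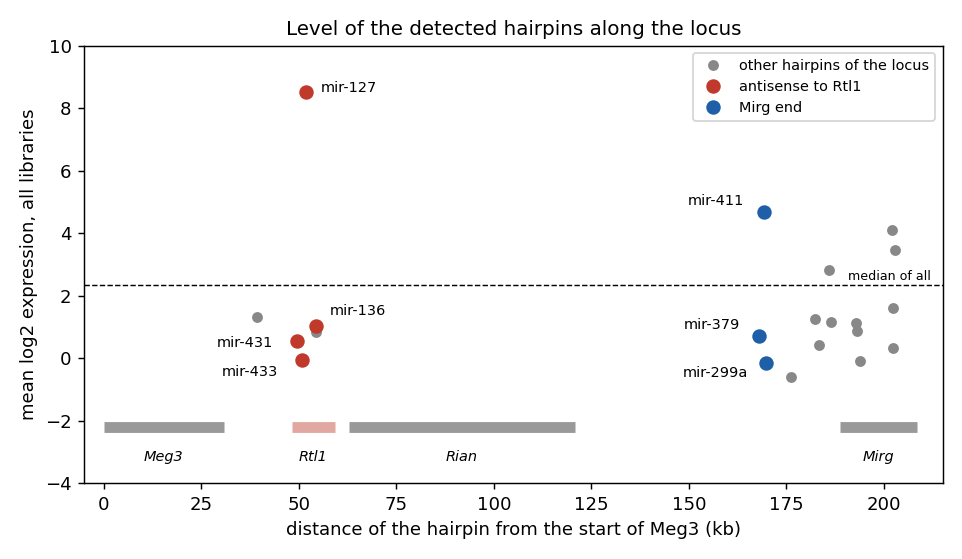
Mean log2 expression over all 14 libraries (vertical axis) of the 21 hairpins of the domain that have a row in the table, against their distance in kb from the start of Meg3 (horizontal axis). Each point is 1 hairpin, bars at the bottom show annotated genes, and the dashed line is the median of all 539 hairpins, 2.34. The hairpin mir-127 stands at 8.52, while its 3 neighbours across Rtl1 lie between −0.06 and 1.04.

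Neighbours that are thought to come from 1 transcript thus differed widely in measured level. The starts of mir-127 and mir-136 are 2.48 kb apart, and their mean levels differed by 7.48 on the log2 scale, a ratio of 178. Between mir-127 and mir-433, which start 1.13 kb apart, the ratio was 382. At the Mirg end mir-411 exceeded mir-379, 1.11 kb away and of the same 3p seed, by a ratio of 15.5, and mir-299a, 0.46 kb away, by a ratio of 28.3. Since mir-433 and mir-299a sat near the floor of the table, the size of the ratios with them is uncertain. Among the 7 members, each side therefore held 1 hairpin above the median level of the table next to others below it. Of the other hairpins of the Mirg end, mir-409, mir-410 and mir-381 also lay above that median. The antisense members spanned −0.06 to 8.52 and the members at the Mirg end −0.15 to 4.67 in the mean expression of the authors' deposited table (log2), with medians of 0.80 and 0.72.

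The comparison asks whether exosomes of obese and lean macrophages carry these miRNAs at different levels. The table does not name the numerator of its fold changes. From publications, exosomes of obese macrophages are known to carry more miR-155. Whether that knowledge rests on these same libraries was not checked, so it may not be independent of these data. The inflammatory miRNA mir-155 has a positive log2 fold change of 4.41 in the authors' deposited table, so a positive sign is read as higher in obese on that ground alone.

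No member passed the test between the groups. Of the 7 hairpins, 0 had an adjusted p under 0.05 in the authors' deposited table, against 5.57% of all 539 hairpins (30 called). At an unadjusted p under 0.05 the count was also 0 of 7, against 17.6% of all hairpins, and at an adjusted p under 0.1 it was 0 of 7 against 8.35%. Adjusted p-values of the 7, from limma's columns in the authors' deposited table, lay between 0.676 and 0.929. The log odds of a difference, B, on a natural log scale, lay between −6.04 and −5.50 for them in the authors' deposited table. With 7 members and a background of 5.57%, a count of 0 does not set them apart from the table. The 30 calls were 11 positive and 19 negative. When 0.34, the median among the 180 hairpins of highest level, was subtracted from every log2 fold change, calls numbered 8 positive and 25 negative, with 0 of the 7.

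On the Rtl1 side the abundant mir-127, often studied as a regulator of proliferation, has a log2 fold change of −0.60 (adjusted p = 0.825) by the authors' deposited table. Its standard error, the fold change divided by t, was 0.95, and the 95% interval ran from −2.60 to 1.41. As a ratio this is 0.66, bounded by 0.16 and 2.65. The interval holds no difference as well as a change of several-fold towards lower levels, so a moderate change of mir-127 was not detectable in these libraries. The hairpin mir-431, whose product is studied in muscle regeneration, is listed in the authors' deposited table at 0.99, with a standard error of 1.34 (adjusted p = 0.760). For mir-433 the authors' deposited table gives −0.71 with a standard error of 1.61 (adjusted p = 0.901), the largest error among the 7. The authors' deposited table puts mir-136 at 0.49, with a standard error of 1.32 (adjusted p = 0.917). So 2 of these 4 values were positive and 2 negative, and each was smaller than its standard error.

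On the other strand from mir-136, the authors' deposited table has mir-3071 at 0.15 (adjusted p = 0.968). Its mean log2 expression there, 0.85, lay close to the 1.04 of mir-136. The sources used here do not say whether the authors' counting used strand. Without strand, reads of mir-136 and mir-3071, and fragments of Rtl1 mRNA and of the 4 hairpins across it, cannot be told apart.

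At the Mirg end the authors' deposited table has 3 of 3 log2 fold changes above 0, and none passed. For the best detected, mir-411, the authors' deposited table gives 1.08 (adjusted p = 0.714), with a standard error of 1.26 and 95% limits of −1.56 and 3.72. In the authors' deposited table mir-299a has nearly the same value, 1.09 with a standard error of 1.14 (adjusted p = 0.676). The first hairpin of the cluster, mir-379, stands in the authors' deposited table at 0.35 with a standard error of 1.05 (adjusted p = 0.929). As on the Rtl1 side, each value was smaller than its standard error. After the recentring by 0.34 these values were 0.74, 0.75 and 0.01, so mir-379 then lay at the centre of the abundant hairpins.

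**Figure D2:**
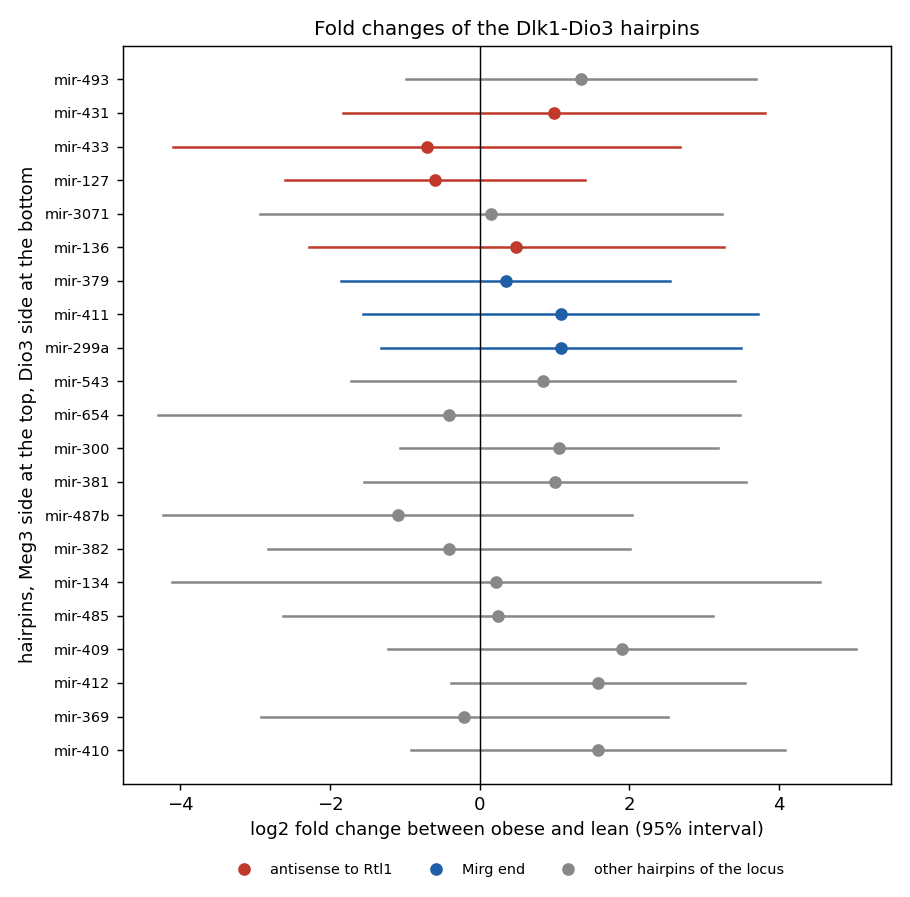
Log2 fold change between obese and lean (horizontal axis) with its 95% interval for the 21 hairpins of the domain in the table, in chromosome order from the Meg3 side (top) to the Dio3 side (bottom). Points are the deposited fold changes, bars the intervals from their standard errors, and colours mark the 2 groups of members; all 21 intervals include 0, and after recentring by 0.34 mir-3071, mir-134 and mir-485 change from positive to negative.

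Set against each other, the 2 sides had different medians, and intervals of their single members that overlapped. The median log2 fold change was 1.08 at the Mirg end and −0.05 on the Rtl1 side, a difference of 1.14, or 0.74 and −0.40 after recentring by 0.34. Single members carried standard errors of 0.95 to 1.61. In all 12 pairs of 1 member from each side the 95% intervals overlapped, as they must, since each of the 7 includes 0. This overlap therefore does not show whether the sides differ. The range from −1.32 to 1.41 lay inside the intervals of all 7. Within the Rtl1 side mir-431 and mir-433 differed by 1.70, which is more than the 1.14 between the medians of the 2 sides. The difference between the sides was not tested: the members share their libraries, and how far they vary together across libraries is unknown here. For the same reason no hairpin can be named as most like these in pattern.

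The errors set what could have been called. With all other rows as deposited, 1 more hairpin would pass the Benjamini-Hochberg rule at an absolute t of 3.45. At the standard errors of the members this is a log2 fold change of 3.29 for mir-127, 4.33 for mir-411 and 5.55 for mir-433. The limits of the other 4 members lie between those of mir-127 and mir-433.

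Standard errors of the domain's hairpins were often large for their level. The error of mir-127, 0.95, exceeded those of 39 of the 50 hairpins nearest to it in mean expression, whose median was 0.72. That of mir-411, 1.26, exceeded 40 of its 50 neighbours, with a median of 0.95. On the Rtl1 side the errors of mir-433, mir-431 and mir-136 exceeded 47, 43 and 34 of 50, whereas mir-379 and mir-299a, with 25 and 21 of 50, lay near the middle. Over all 21 hairpins of the domain, 16 had an error above the median of their neighbours, against 258 of 539 in the whole table. Large errors for the level were also found outside the domain: mir-335 and mir-483 of other imprinted loci exceeded 40 and 49 of their 50 neighbours, endothelial mir-126a 50 and lymphocyte mir-150 46. The listed mesenchymal hairpins were split. Of these, mir-143, mir-214 and mir-145a exceeded 43, 39 and 34 of 50, whereas the 3 mir-199 hairpins exceeded 1 to 5. This is a description with no test, as the 21 hairpins share libraries and probably transcripts.

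**Figure D3:**
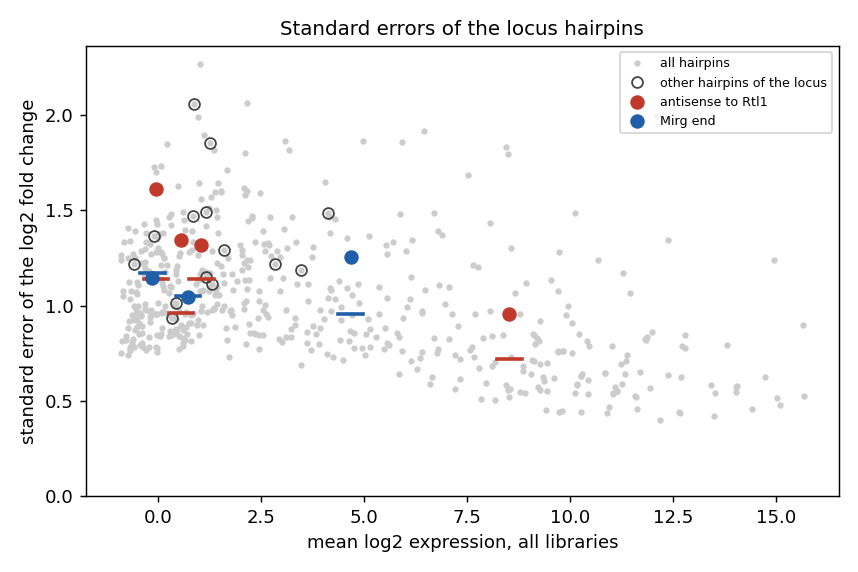
Standard error of the log2 fold change (vertical axis) against mean log2 expression over all libraries (horizontal axis) for the 539 hairpins. Short horizontal bars give the median error of the 50 hairpins nearest in mean expression to each member; all 4 members of the Rtl1 side and mir-411 lie above their bars.

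Beyond the 7, a list of 52 other hairpins of the domain was looked up, and 14 of them have a row in the table. None of the 14 was called, and none had an unadjusted p under 0.05, where the table has 5.57% and 17.6%. Of these 14, 12 lie at the Mirg end. Among them mir-412 has the smallest p in the authors' deposited table, 0.109 unadjusted (adjusted p = 0.395), with a log2 fold change of 1.58. On either side of it on the chromosome, the authors' deposited table has mir-410 at 1.58 and mir-409 at 1.90 (adjusted p = 0.526 and 0.544). These 2 are also the most abundant of the 14, with mean log2 expression of 3.47 and 4.11 there, followed by mir-381 at 2.83. Log2 fold changes from the authors' deposited table were 1.0 for mir-381 (adjusted p = 0.715) and 1.36 for mir-493 on the Meg3 side of Rtl1 (adjusted p = 0.566). Between mir-412 and mir-410 lies mir-369, which the authors' deposited table puts at −0.21 (adjusted p = 0.961), so neighbours within this stretch did not have 1 sign.

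Counted over the 21 hairpins, 15 log2 fold changes were positive with a median of 0.49, beside 284 of 539 and a median of 0.09 in the whole table. After recentring by 0.34 the counts were 12 of 21 and 221 of 539. At the Mirg end 11 of 15 were positive with a median of 0.84, or 9 of 15 after recentring. On the Meg3 and Rtl1 side 4 of 6 were positive with a median of 0.32. Recentring turned mir-3071 of this side negative, to −0.19, and changed no other sign there. Of the 21 hairpins, 10 belong to the 180 least abundant of the table and 10 to the 179 in the middle, and mir-127 is the 1 among the 180 most abundant. Over all hairpins of these 3 classes the median log2 fold change was −0.12, −0.30 and 0.34. The signs of the domain's hairpins are given as a description, since none of the values behind them passed.

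**Figure D4:**
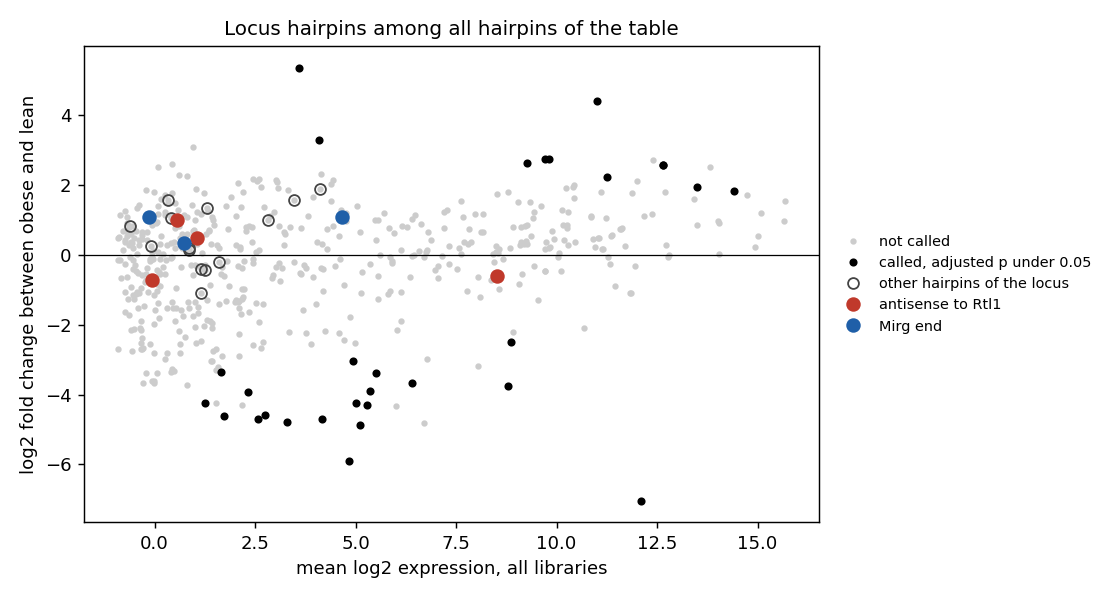
Log2 fold change between obese and lean (vertical axis) against mean log2 expression over all libraries (horizontal axis) for all 539 hairpins, with the 30 called ones in black. The 21 hairpins of the domain lie between −1.09 and 1.90, and no called hairpin is among them.

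On the same chromosome but outside the imprinted domain lie mir-342, in an intron of Evl, and mir-345, within the span of Slc25a47. The authors' deposited table gives mir-342 a mean log2 expression of 11.32 and a log2 fold change of −0.26 (adjusted p = 0.910). The same 2 values for mir-345 are 6.70 and −0.06 (adjusted p = 0.973) by the authors' deposited table. Their standard errors, 0.64 and 0.83, were smaller than that of mir-127, the member nearest to them in level. Neither neighbour passed the test either.

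The labelled cell type was checked against myeloid miRNAs, and other cells of fat and blood against lists of their own. Myeloid mir-142a and mir-223 were well detected, at 9.70 and 7.62 in mean log2 expression by the authors' deposited table. By the same measure there, erythrocyte mir-486a stood above both, at 11.81, and mir-451a at 6.76. Endothelial mir-126a stood at 6.46, lymphocyte mir-150 at 3.24 and the liver and serum miRNA mir-122 at 2.15. Level alone thus did not set the myeloid miRNAs apart from those of other cells. The authors' deposited table gives log2 fold changes of −0.46 for mir-142a (adjusted p = 0.833) and 1.54 for mir-223 (adjusted p = 0.307). Mesenchymal cells, which also express miRNAs of this domain, are marked by mir-199a, mir-199b, mir-214, mir-143 and mir-145a. All 6 of these hairpins have a row, at 0.22 to 6.59 in mean log2 expression, with log2 fold changes between −1.33 and 1.21 and a median of 0.13, and 0 of 6 passed at an adjusted or an unadjusted p under 0.05 in the authors' deposited table. Within that list mir-199a-1 was the most abundant (0.11, adjusted p = 0.948) and mir-199a-2 had the smallest p (0.81, adjusted p = 0.567), by log2 fold change in the authors' deposited table. No call in the authors' deposited table fell on erythrocyte mir-486a (−1.09, adjusted p = 0.526) and mir-451a (0.09, adjusted p = 0.965), endothelial mir-126a (0.01, adjusted p = 0.995), lymphocyte mir-150 (0.59, adjusted p = 0.910) and the liver and serum miRNA mir-122 (1.36, adjusted p = 0.612), each given by its log2 fold change. After recentring by 0.34 the values of mir-199a-1, mir-199b, mir-145a, mir-451a and mir-126a turn negative. Which cells released the domain's miRNAs was not tested, and fewer vesicles with a miRNA and less of it per vesicle cannot be told apart.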

How the data were processed

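Exosomal small RNA of 7 obese and 7 lean libraries was sequenced. Trimmomatic 0.30, Novoalign, limma, edgeR, FastQC and MultiQC were used, per the submitters' processing notes, which give no roles; for build, miRNA annotation, filters and scaling, nothing is given in the sources used here. The authors' deposited table of 539 hairpins holds log2 fold changes and mean log2 expression, a moderated t (a score with no fixed range), p-values unadjusted and adjusted, and B on a natural log scale, per the file headers. It has 0 columns of per-library values, so depth is unknown and the model planned for libraries was not fitted. Deposited adjusted p-values equal a Benjamini-Hochberg adjustment over 539 rows. From t and p, 17.9 degrees of freedom were recovered (SciPy 1.17.1); standard errors are fold change over t, and steps were tested on simulated data. Sequences are RefSeq's on GRCm38.p6 and gene models GENCODE M21; the authors' build may differ. Members and lists were chosen with earlier results of these data known. Named are the 7 members, the 4 other domain hairpins of smallest p and the 3 most abundant, mir-155, and in each other list the smallest p and the most abundant; mir-3071, mir-369, mir-134, mir-485 and further list members were named after their values were seen. The comparison with 50 neighbours in expression was also chosen then.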

Additional observations from a re-analysis of the deposited data

How the results depend on the processing

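None of the 7 hairpins was called under an adjusted p under 0.1, a 2-fold minimum (which can add no call), recentring by 0.34, leaving out the 180 least abundant hairpins, or an unadjusted p. Only recentring can change a sign; all 7 signs held, that of mir-379 barely, at 0.01. Over the whole table, 45, 30, 33 and 36 hairpins were called under the first 4 and 95 at an unadjusted p under 0.05, beside 30. Leaving out those 180 removed mir-431, mir-433, mir-379 and mir-299a, and the smallest adjusted p among the 3 left was 0.703. Alternatives that leave out a library were not run. No paired analysis was possible because libraries have no columns of their own.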

Other observations

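Of 5 listed hairpins of other imprinted loci, 2 have a row. The one of smaller p and higher level is mir-335, in the gene Mest, with a log2 fold change of 0.60 and a standard error of 1.57 (limma, adjusted p = 0.912) and a mean log2 expression of 1.28 in the authors' deposited table. Like most members of the Dlk1-Dio3 domain it lay below the median level of the table, 2.34.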
